A study of Mus musculus with 12 samples.

Results

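The 9 genes described here carry the output of the circadian clock: Dbp, Tef, Hlf, Nfil3, Ciart, Bhlhe40, Bhlhe41, Rora and Noct. They were chosen by name from the 32285 genes counted, and their levels were read in hepatocyte nuclei and, apart from these, in endothelial nuclei. Noct is the only member of the set that encodes an enzyme rather than a transcription factor.

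Single-nucleus RNA sequencing was done on 8 wild-type male mice (C57BL/6NTac in the study's methods, C57BL6J in the labels), 10 to 12 weeks old and fed chow under a light and dark cycle. Each mouse gave Liver (L), a piece of the median lobe frozen after perfusion with EGTA and before collagenase, Cell Suspension (CS), the hepatocyte-enriched cells after collagenase and low-speed spins, and Primary Hepatocytes (PH), those cells after 24 h on collagen in a medium with dexamethasone and insulin. No group was treated or genetically altered, and PH cells were cultured as a flat layer, detached with trypsin and still held endothelial nuclei. The hour at which each mouse was killed is not given in the sources used here.

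The 53467 nuclei came from 6 pools of 4 hashtagged samples, and 337 cell barcodes occurred in more than 1 pool. L, CS and PH held 15166, 13339 and 16283 hepatocyte nuclei and 2474, 1152 and 1809 endothelial nuclei. Hepatocyte nuclei gave 6872031 to 29023569 unique molecular identifiers (UMIs, each marking a captured RNA molecule) per L sample, 2104087 to 17452582 per CS sample and 9852007 to 21226254 per PH sample. Endothelial nuclei gave 480577 to 2578536, 143093 to 677603 and 95289 to 975374 UMIs, and the smallest PH sample held 29 endothelial nuclei. Levels are CPM, the gene's UMIs relative to all UMIs of that nucleus type in that sample, and so are relative to the RNA captured from these nuclei. The CPM of members and clock genes by sample are also divided by edgeR's TMM factors, which were 0.801 to 0.999 in L, 0.736 to 0.92 in CS and 1.24 to 1.57 in PH for hepatocyte nuclei and 0.895 to 1.19 for endothelial nuclei, whereas sums of markers and levels by zone are not. The 12 hepatocyte markers summed to 13196.2 to 18863.9 CPM in hepatocyte nuclei of L and to 3131.5 to 7793.2 CPM in those of PH, and all 12 were detected in each. The 12 endothelial markers summed to 38.1 to 63.0 CPM and 125.8 to 182.9 CPM in the same nuclei, against 12646.5 to 16542.4 CPM in endothelial nuclei of L and 5606.8 to 9486.9 CPM in those of PH.

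In the circadian clock of the liver, the activators CLOCK and BMAL1 (the product of Arntl) bind E-box sequences and switch on the genes of their own repressors. The same activators drive output genes, among them the PAR bZIP activators DBP, TEF and HLF, which bind D-box sequences near genes of detoxification and bile acid metabolism. NFIL3 represses through the same D-boxes, BHLHE40, BHLHE41 and CIART (also called CHRONO) repress at E-boxes, and RORA activates through ROR elements in Arntl and Nfil3. NOCT, nocturnin, is a phosphatase that acts on NADPH and has a rhythmic transcript in liver.

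The promoters of these genes hold the elements to different extents. Of the 9 members, 8 had at least 1 promoter in the RefSeq table for GRCm38.p6, with 9 entries in all since Tef has 2. In the 250 bases before each start site, both strands were searched for the E-box CACGTG, the D-box (TTACGTAA or TTATGTAA), the ROR element (TAGGTCA or TGGGTCA) and the cAMP element TGACGTCA. Of 32851 mouse promoters, 6.02% held the E-box, 0.931% the D-box, 5.38% the ROR element and 1.55% the cAMP element. Ciart, Bhlhe41 and both entries of Tef held the E-box. Ciart held 3, as did 0.0609% of all promoters. The Nfil3 promoter held 1 ROR element and the Hlf promoter 1 cAMP element, those of Dbp, Rora and Noct held none of the motifs, and no member held the D-box in this window. The E-box was the only 1 of the 4 motifs in the stretches printed here, and a match is a description of the letters only.

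The stretches with E-boxes are shown to give the letters behind these counts. Of the 5 members that divided the mice in L, as described further on, Tef, Ciart and Bhlhe41 held an E-box, Noct held none of the motifs and Bhlhe40 had no promoter entry. In CS the members highest in the same mice were Dbp, Tef, Ciart and Noct, and Dbp and Noct held none of the motifs. Both groups were formed from these levels, and a link of the E-box to the division was not tested. Capitals mark the E-box, 5′ to 3′ on the gene's strand. Ciart is given for the 250 bases before its start (chr3:95882229-95882478, minus strand), with E-boxes between 116 and 44 bases before the start. Tef is given for its downstream start site (chr15:81811239-81811318, plus strand), with the E-box 138 bases before it. Bhlhe41 is given around the E-box 153 bases before its start (chr6:145865531-145865610, minus strand).
Ciart: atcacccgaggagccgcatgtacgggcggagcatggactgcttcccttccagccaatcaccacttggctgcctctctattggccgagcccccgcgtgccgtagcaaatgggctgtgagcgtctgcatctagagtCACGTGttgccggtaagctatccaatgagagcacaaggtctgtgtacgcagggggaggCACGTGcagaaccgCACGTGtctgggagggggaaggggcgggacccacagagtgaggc
Tef: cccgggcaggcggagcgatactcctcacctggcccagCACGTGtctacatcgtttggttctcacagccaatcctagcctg
Bhlhe41: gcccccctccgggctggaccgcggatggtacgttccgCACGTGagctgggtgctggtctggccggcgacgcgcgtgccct

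In hepatocyte nuclei, 7 of the 9 genes were lower in PH than in L, and 2, Nfil3 and Noct, did not pass the test. Hlf and Dbp fell by the largest amounts, 24.6-fold and 15.7-fold, and Tef, Rora, Bhlhe40, Bhlhe41 and Ciart by 2.52- to 3.77-fold. Of all 26778 genes tested, 26.3% were lower in PH at the same threshold (adjusted p under 0.05, edgeR quasi-likelihood test with Benjamini-Hochberg adjustment, used throughout unless another test is named). The members' median log2 fold change was -1.43, against 0.1 over all genes tested. Without the TMM factors these medians were -0.93 and 0.66, 6 members were lower (all of the 7 but Ciart, adjusted p = 0.191), and 13078 genes were higher and 4196 lower, against 7330 and 7049 with them.

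**Figure D1:**
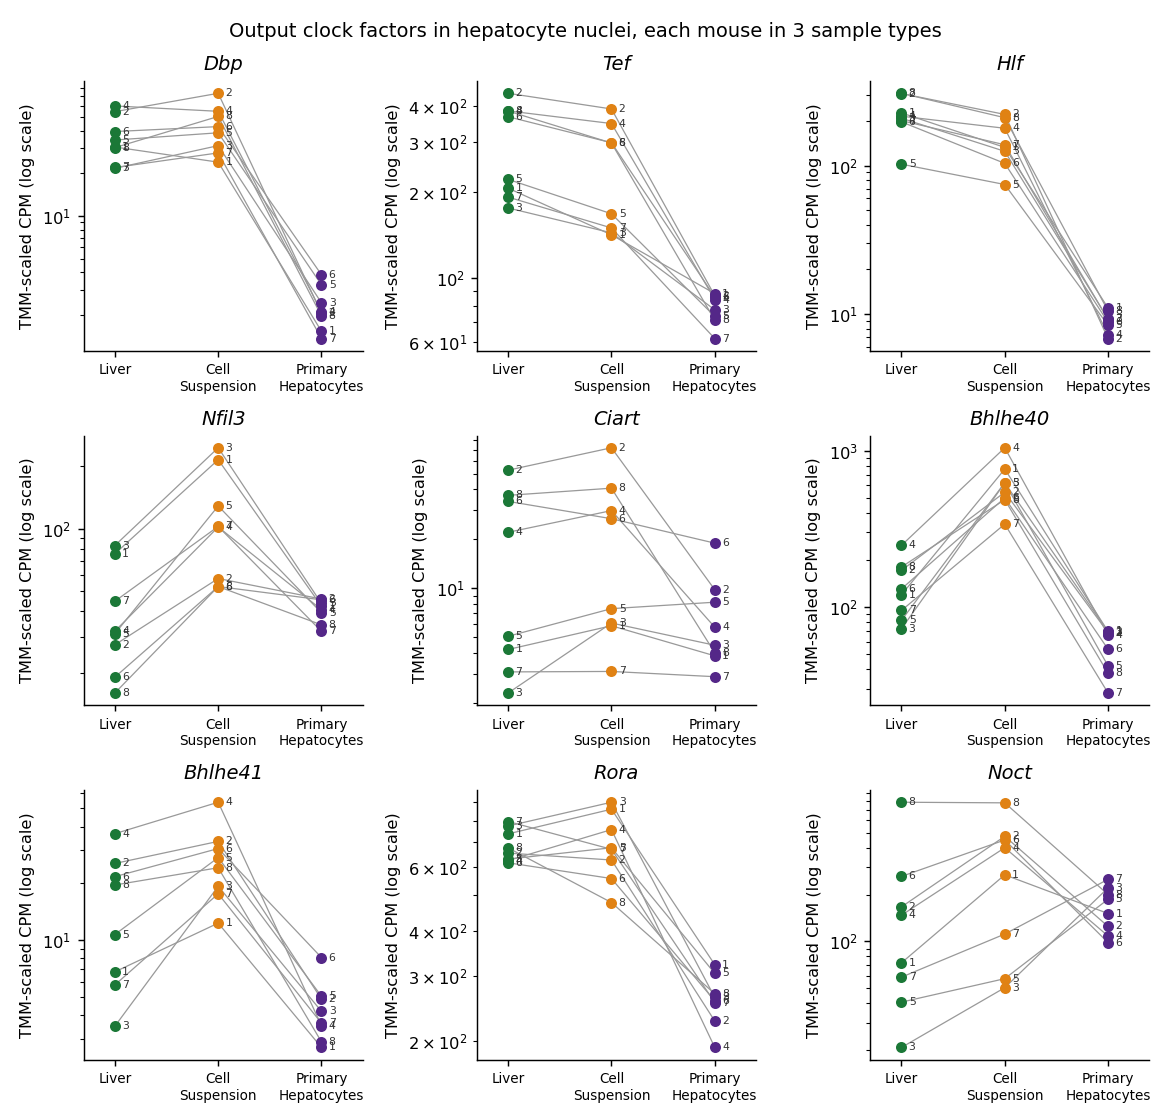
Each panel plots 1 gene in hepatocyte nuclei, with TMM-scaled CPM on a log scale against sample type and a line joining the 3 samples of each of the 8 mice. Dbp lies between 21.7 and 59.9 CPM in L and between 1.36 and 3.84 CPM in PH, whereas Bhlhe40 peaks in CS and Nfil3 and Noct in PH lie within their L range.

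The PAR bZIP activators were low in culture in every mouse. Dbp measured 21.7, 32.6 and 59.9 CPM (lowest, median and highest of 8 samples) in L, 24.0, 40.8 and 73.6 in CS, and 1.36, 2.08 and 3.84 in PH. No PH sample reached the L or CS range, and a PH sample held 24 to 81 UMIs of Dbp. The log2 fold change was -3.98 ± 0.26 (SE) against L (adjusted p = 4.09e-14) and -4.22 ± 0.27 against CS (adjusted p = 1.98e-14). Between CS and L, Dbp differed by 0.24 ± 0.23 (adjusted p = 0.506).

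Hlf measured 102.1, 211.3 and 306.2 CPM in L, 74.5, 135.2 and 220.7 in CS, and 6.85, 9.01 and 11 in PH. Its PH samples lay below every L and CS sample. The log2 fold change was -4.62 ± 0.22 against L (adjusted p = 4.02e-17) and -4.05 ± 0.22 against CS (adjusted p = 6.72e-16). Hlf was also lower in CS than in L, by -0.57 ± 0.19 (adjusted p = 0.0302), in 8 of 8 mice. That call was lost under 6 of the other settings, DESeq2 and the pool as a term (adjusted p = 0.162) among them, and without mouse 1, 3, 6 or 7.

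Tef, the third PAR bZIP gene, measured 175.9, 294.1 and 442.9 CPM in L, 141.7, 232.4 and 390.4 in CS, and 61.5, 80.9 and 88.3 in PH. The PH samples again did not reach the other groups. Tef fell by 1.91 ± 0.23 on the log2 scale from L to PH (adjusted p = 1.24e-08) and by 1.62 ± 0.22 from CS to PH (adjusted p = 2.67e-07). The CS and L samples overlapped, although each mouse had less Tef in CS than in L (log2 fold change -0.29 ± 0.22, adjusted p = 0.384). With the mouse as a replicate block the difference was -0.31 ± 0.14 (adjusted p = 0.125).

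Nfil3, the D-box repressor, followed another course. It measured 16.1, 31.6 and 82.8 CPM in L, 52.5, 102.0 and 245.1 in CS, and 31.9, 41.4 and 45.7 in PH. It was higher in CS than in L in 8 of 8 mice, by 1.53 ± 0.32 (2.89-fold, adjusted p = 4.96e-04), although the ranges overlapped. From CS to PH it fell by 1.57 ± 0.32 (adjusted p = 9.70e-05), with no overlap. PH and L differed by -0.03 ± 0.31 (adjusted p = 0.943), with 5 mice higher and 3 lower in PH. Among spliced UMIs alone, Nfil3 was higher in PH than in L, by 0.89 ± 0.24 (adjusted p = 0.00162). Its CPM without the TMM factors had medians of 28.7 in L and 55.9 in PH.

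Bhlhe40, an E-box repressor, had the largest rise after isolation. It measured 72.4, 125.0 and 247.9 CPM in L, 339.3, 583.0 and 1046.0 in CS, and 28.1, 59.9 and 69.7 in PH. Each group lay outside the range of the others, with CS on top and PH at the bottom. The log2 fold change was 2.17 ± 0.25 for CS against L (4.49-fold, adjusted p = 7.19e-08), -3.50 ± 0.26 for PH against CS (adjusted p = 8.31e-13) and -1.34 ± 0.24 for PH against L (adjusted p = 1.82e-05). The last difference was smaller among spliced UMIs, at -0.42 ± 0.23 (adjusted p = 0.124).

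Bhlhe41, its paralog, measured 3.49, 15.2 and 36.7 CPM in L, 12.3, 25.8 and 53.9 in CS, and 2.69, 3.9 and 8.07 in PH. PH lay below every CS sample and overlapped L only in the lower L samples. It was lower in PH than in L by -1.89 ± 0.37 (adjusted p = 5.04e-05) and than in CS by -2.67 ± 0.37 (adjusted p = 3.54e-07). All 8 mice had more Bhlhe41 in CS than in L (0.78 ± 0.35, adjusted p = 0.113). With the mouse as a replicate block this difference was 0.91 ± 0.23 (adjusted p = 0.00492).

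Ciart, a repressor of CLOCK and BMAL1, measured 2.29, 13.5 and 52.4 CPM in L, 3.1, 17 and 71.8 in CS, and 2.88, 5.13 and 18.8 in PH. The groups overlapped, and 6 of 8 mice were lower in PH than in L. Even-numbered mice ranged from 21.9 to 52.4 CPM in L and from 4.03 to 18.8 in PH. Odd-numbered mice ranged from 2.29 to 5.08 CPM in L and from 2.88 to 8.2 in PH. The log2 fold change was -1.43 ± 0.60 for PH against L (adjusted p = 0.0432) and -1.75 ± 0.60 for PH against CS (adjusted p = 0.0161). With the pool in the fit both calls were lost (adjusted p = 0.194 and 0.0553), as they were without mouse 2, 4 or 8, and the first was also lost with DESeq2, with RLE normalization, with a stricter count filter, with samples thinned to equal depth and without the authors' cluster 8. The authors' cluster 17 of cultured nuclei held 7.81% of the hepatocyte nuclei of PH and 621 of the 1097 Ciart UMIs there (56.6%), as well as 33.2% of those of Dbp and 32.9% of those of Bhlhe41. Leaving that cluster out, which was chosen after seeing the data, takes away nuclei rich in these genes and so lowers them in PH by construction. Ciart then differed by -2.53 ± 0.60 from L and by -2.85 ± 0.61 from CS. The members' median log2 fold change was then -1.93 against L and -2.85 against CS. The direction of these shifts was set beforehand, so they are a description and no test.

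Rora, the nuclear receptor, had the least spread of the set in L, with 614.6, 664.3 and 797.6 CPM. It measured 478.2, 672.5 and 900.8 in CS and 191.6, 260.0 and 323.1 in PH. PH lay below both other groups, by -1.40 ± 0.13 against L (adjusted p = 1.43e-10) and -1.40 ± 0.13 against CS (adjusted p = 1.62e-10). Rora is a gene of 734.5 kb (chr9:68653786-69388246, plus strand, GRCm38), and 94.0% of its UMIs in hepatocyte nuclei of L were unspliced. Spliced Rora UMIs differed between PH and L by -0.29 ± 0.15 (adjusted p = 0.103), and unspliced ones by -1.44 ± 0.13 (adjusted p = 3.85e-11).

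Noct measured 20.8, 110.0 and 784.9 CPM in L, 50.4, 334.1 and 777.8 in CS, and 98.2, 168.9 and 250.7 in PH. The ranges overlapped in every comparison. No contrast passed the test, with log2 fold changes of -0.21 ± 0.54 for PH against L (adjusted p = 0.778), -0.95 ± 0.55 for PH against CS (adjusted p = 0.155) and 0.74 ± 0.54 for CS against L (adjusted p = 0.376). Noct was higher in CS than in L in 7 of 8 mice, and with the mouse as a replicate block this difference was 1.04 ± 0.42 (adjusted p = 0.0772). Between PH and L the mice went in opposite directions, with 4 higher and 4 lower in PH. Odd-numbered mice ranged from 20.8 to 72.8 CPM in L and from 151.1 to 250.7 in PH. Even-numbered mice ranged from 147.3 to 784.9 CPM in L and from 98.2 to 200.1 in PH.

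Counted together, 8 of 9 members were lower in PH than in CS, where 23.5% of all genes tested were lower. Between CS and L, 3 of 9 passed (Nfil3 and Bhlhe40 higher, Hlf lower), where 22.3% of all genes passed in either direction. In the same comparison 8 of the 12 endothelial markers and 4 of the 12 hepatocyte markers were higher in CS and 0 of either lower, with sums in CS of 42.0 to 87.0 and 17461.5 to 22492.7 CPM, and their part in the members' levels was not tested. The samples of PH and L did not overlap for 5 members (Dbp, Tef, Hlf, Bhlhe40 and Rora), against 30.3% of all genes. PH and CS did not overlap for 7 members, all but Ciart and Noct, against 26.6% of all genes. CS and L did not overlap for 1 member, Bhlhe40, against 5.64% of all genes. Without the TMM factors, 4 members did not overlap between PH and L (Dbp, Tef, Hlf and Rora, against 35.7% of all genes) and 4 between PH and CS (Dbp, Hlf, Bhlhe40 and Rora, against 34.6%), and the test gave 7 members lower in PH than in CS, Ciart not passing (adjusted p = 0.135). The 3 comparisons share samples, so their counts are not independent of each other.

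**Figure D2:**
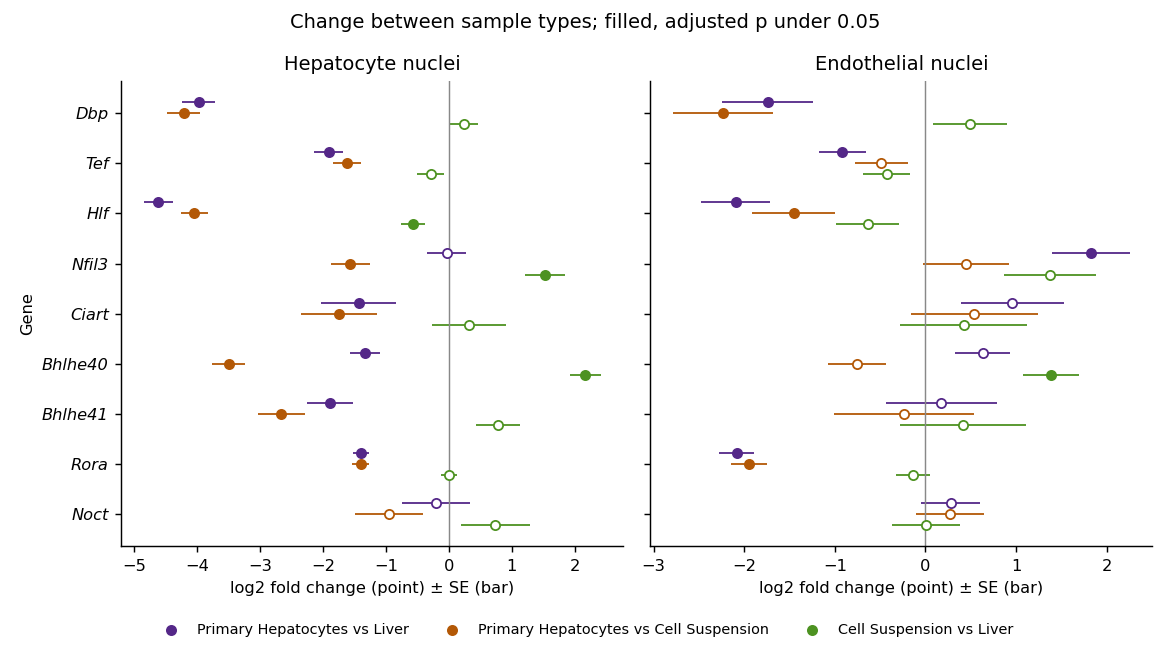
Points give the log2 fold change of each gene and bars its SE, for the 3 comparisons of sample types in hepatocyte (left) and endothelial nuclei (right), and filled points passed an adjusted p of 0.05. In hepatocyte nuclei Dbp and Hlf lie near -4 in PH, and Bhlhe40 and Nfil3 are the only members that passed as higher in CS than in L.

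Only 2 of the pools held both L and PH, so most of that comparison runs between libraries. In pool 2, where mouse 4 had both, PH minus L on the log2(TMM-scaled CPM + 1) scale was -4.29 for Dbp, -4.70 for Hlf, -2.18 for Tef, -1.89 for Bhlhe40, -3.06 for Bhlhe41, -1.70 for Rora and -1.76 for Ciart. In pool 5, the mean of 2 PH samples minus the L sample of mouse 5 was -3.48 for Dbp, -3.24 for Hlf, -1.56 for Tef, -0.67 for Bhlhe40, -1.39 for Bhlhe41, -1.24 for Rora and -0.21 for Ciart. The direction in both pools was that of the comparison over all samples for these 7 genes. Each pool held 1 L sample, and the PH samples of pool 5 came from other mice, 3 and 8. Noct went by -0.44 in pool 2 and by 2.34 in pool 5. CS minus L in pool 1 (mouse 7) and pool 6 (mouse 6) was 1.83 and 1.93 for Bhlhe40 and 1.18 and 1.40 for Nfil3.

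Other genes of the clock and of the PAR bZIP pathway were read from lists. Of 14 core clock genes, 5 were higher in PH than in L (Npas2, Per1, Cry1, Csnk1d and Csnk1e), 5 were lower (Per3 and Nr1d1 among them) and 4 did not pass, where 7330 and 7049 of 26778 genes were higher and lower. The repressor genes Per3 and Nr1d1 fell by 3.73 ± 0.41 and 3.02 ± 0.28 on the log2 scale (adjusted p = 3.05e-09 and 7.03e-11), and Per1 rose by 0.78 ± 0.32 (adjusted p = 0.0392). Arntl, which encodes the activator BMAL1, differed by 0.45 ± 0.42 (adjusted p = 0.396). The list's median log2 fold change was 0.14. Without the TMM factors Per2 did not pass, and Arntl and Cry2 passed as higher.

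Of 7 genes known as PAR bZIP targets, 5 were lower in PH than in L (26.3% of all genes were), 1 was higher and Cyp2a4 did not pass. Cyp7a1, the rate-limiting enzyme of bile acid synthesis, fell by 6.69 ± 0.44 on the log2 scale (adjusted p = 3.39e-14) and Nr1i3, which encodes the xenobiotic receptor CAR, by 6.11 ± 0.30 (adjusted p = 4.51e-17). Alas1, the first enzyme of heme synthesis, fell by 2.79 ± 0.54 (adjusted p = 4.58e-05) and Por, the reductase of cytochromes P450, by 0.95 ± 0.22 (adjusted p = 5.29e-04). Cyp2b10, a target of CAR, rose by 4.75 ± 0.40 (adjusted p = 1.30e-11). The list's median log2 fold change was -1.17, and Por did not pass without the TMM factors. In CS against L, 2 of 14 clock genes were higher and 0 lower, and 1 of 7 target genes was higher and 0 lower, where 2183 and 3800 of 26778 genes were higher and lower.

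Splicing state was compared as the unspliced share of a gene's UMIs in hepatocyte nuclei, in percent, by two-sided exact permutation tests of 8 samples against 8, whose smallest possible p is 1.55e-04. Tef fell from 53.3 ± 3.5 (SD) percent in L to 33.8 ± 3.5 in PH, a difference of -19.5 points (adjusted p = 5.59e-04), and 39.0 ± 4.2 percent were unspliced in CS. Nfil3 went from 87.4 ± 2.8 to 72.5 ± 4.0 percent, Bhlhe40 from 29.3 ± 4.5 to 19.5 ± 2.1, and Rora from 93.9 ± 1.2 to 84.7 ± 1.9, each with an adjusted p of 5.59e-04. Noct went from 79.3 ± 6.2 to 70.0 ± 2.0 percent (adjusted p = 0.00501). These 5 of 9 members were lower in PH than in L, where 57.8% of the 11177 genes tested were lower and the median difference over all genes was -4.44 points.

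The shares of Dbp, Hlf and Bhlhe41 did not pass, with differences of -3.31, -1.77 and -1.71 points (adjusted p = 0.489, 0.504 and 0.178). Ciart, a gene of 3.7 kb, had 0 unspliced UMIs in every sample, and 77.2% of its UMIs in L were ambiguous, assigned to neither state. Against CS, 4 members were lower in PH, with differences of -7.4 points for Nfil3, -9.51 for Bhlhe40, -7.66 for Rora and -5.43 for Noct (adjusted p = 0.0403, 0.00175, 0.00175 and 0.0403), where 13.7% of genes were lower. Only Bhlhe40 and Rora were lower without mouse 1, 2, 3, 5, 6 or 7. In CS against L, 2 members were lower, with differences of -14.3 points for Tef (adjusted p = 7.52e-04) and -7.54 points for Nfil3 (adjusted p = 0.0118), where 63.8% of genes were lower and the median difference was -5.64 points. Without mouse 4, Rora passed there as well.

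**Figure D3:**
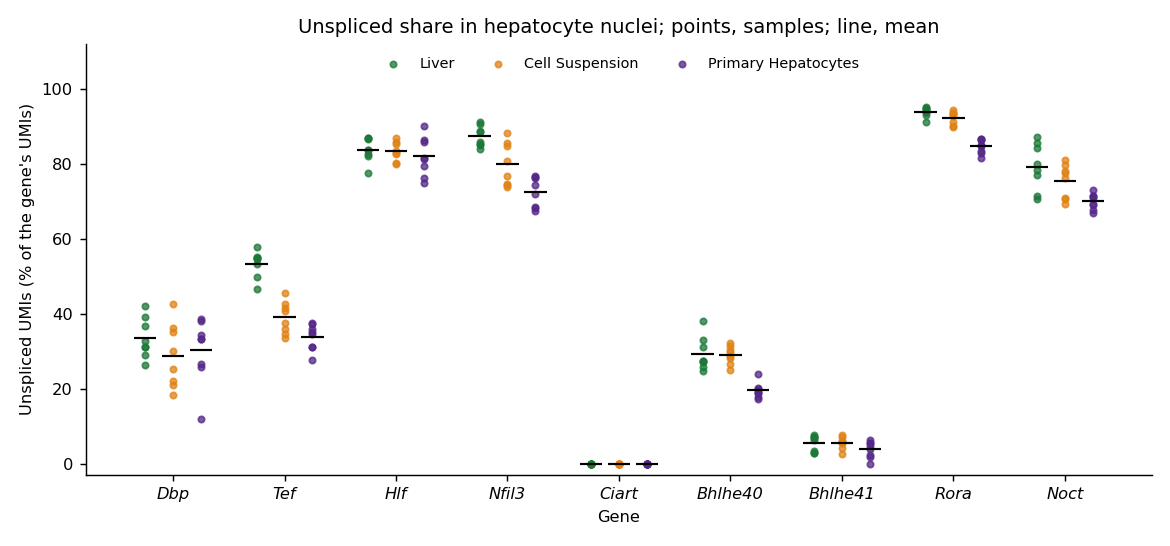
Each point is the unspliced share (percent of the gene's UMIs) of 1 sample in hepatocyte nuclei, by gene and sample type, and the line is the mean of 8 samples. The mean of Tef drops from 53.3 percent in L to 33.8 percent in PH, the means of Hlf lie between 82.0 and 83.8 percent with samples from 75.0 to 90.2 percent, and Ciart is at 0 throughout.

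The spread between mice in L was wide for some members. The highest L sample exceeded the lowest 37.8 times for Noct, 22.9 times for Ciart, 10.5 times for Bhlhe41 and 5.13 times for Nfil3, against a median of 1.64 over 8498 genes. In PH the same ratios were 2.55, 6.52, 3.0 and 1.43, against 1.53 over 8300 genes. The ratio was smaller in PH than in L for 7 members and larger for Dbp (2.76 and 2.83) and Rora (1.3 and 1.69). Without the TMM factors the ratios of Dbp (3.08 and 2.63) and Rora (1.42 and 1.39) were smaller in PH too. With the factors, 5 members (Ciart, Bhlhe41, Noct, Dbp and Bhlhe40 at 2.48) still lay above 2.24 in PH, which 90 percent of these 8300 genes did not exceed. The 8300 are genes of at least 10 CPM on average in PH. Ciart, Bhlhe41 and Dbp averaged 7.23, 4.35 and 2.32 CPM there, below that limit, so their ratios have no background of like level. Rora had the lowest ratio in L, 1.3.

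The mice divided by number. In L, the 4 highest values of Tef, Ciart, Bhlhe40, Bhlhe41 and Noct were those of mice 2, 4, 6 and 8, 5 of 9 members. This held for 2.73% of the 8498 genes of at least 10 CPM on average in L. Mice 1, 3, 5 and 7 were highest for 0 members (6.57% of these genes). In CS, mice 2, 4, 6 and 8 were highest for Dbp, Tef, Ciart and Noct (5.13% of 8128 such genes), and the 4 highest Nfil3 values were those of mice 1, 3, 5 and 7 (3.25%). In PH, neither division held for any member (0.542% and 2.14% of 8300 such genes). Ciart in L measured 4.22, 2.29, 5.08 and 3.08 CPM in mice 1, 3, 5 and 7, and 52.4, 21.9, 33.8 and 36.8 CPM in mice 2, 4, 6 and 8. In CS it measured 5.89, 6.12, 7.49 and 3.1 CPM in the first 4 and 71.8, 29.7, 26.5 and 40.7 CPM in the others. No value of the first 4 mice came near those of the others in either sample type.

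Some core clock genes divided the same mice. In L, 4 of 14 were highest in mice 2, 4, 6 and 8 and 2 of 14 in mice 1, 3, 5 and 7. The shares over 8498 genes were 2.73% and 6.57%. Per1, Per2 and Per3 were among those highest in mice 2, 4, 6 and 8 in L, and Arntl and Clock in mice 1, 3, 5 and 7. Arntl in L measured 59.6, 99.1, 55.1 and 69.8 CPM in mice 1, 3, 5 and 7, and 17.9, 15.5, 9.13 and 12.5 CPM in mice 2, 4, 6 and 8. Per3 in L ranged from 22.2 to 47.7 CPM in the first 4 mice and from 124.8 to 160.9 CPM in the others. In PH, Arntl ranged from 66.4 to 72.6 CPM and from 36.8 to 62.2 CPM. The labels give no difference between odd and even mice, the division was noticed after the values were seen, and it was not tested. Both kinds of mice were in the same libraries. In pool 1, Ciart in L was 2.29 and 3.08 CPM in mice 3 and 7 and 36.8 CPM in mouse 8, and in pool 6 it was 4.22 CPM in mouse 1 and 52.4 and 33.8 CPM in mice 2 and 6. Hepatocyte UMIs per L sample were 17649129 to 29023569 in mice 1, 3, 5 and 7 and 6872031 to 18019389 in the others, and the part of depth was not tested.

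**Figure D4:**
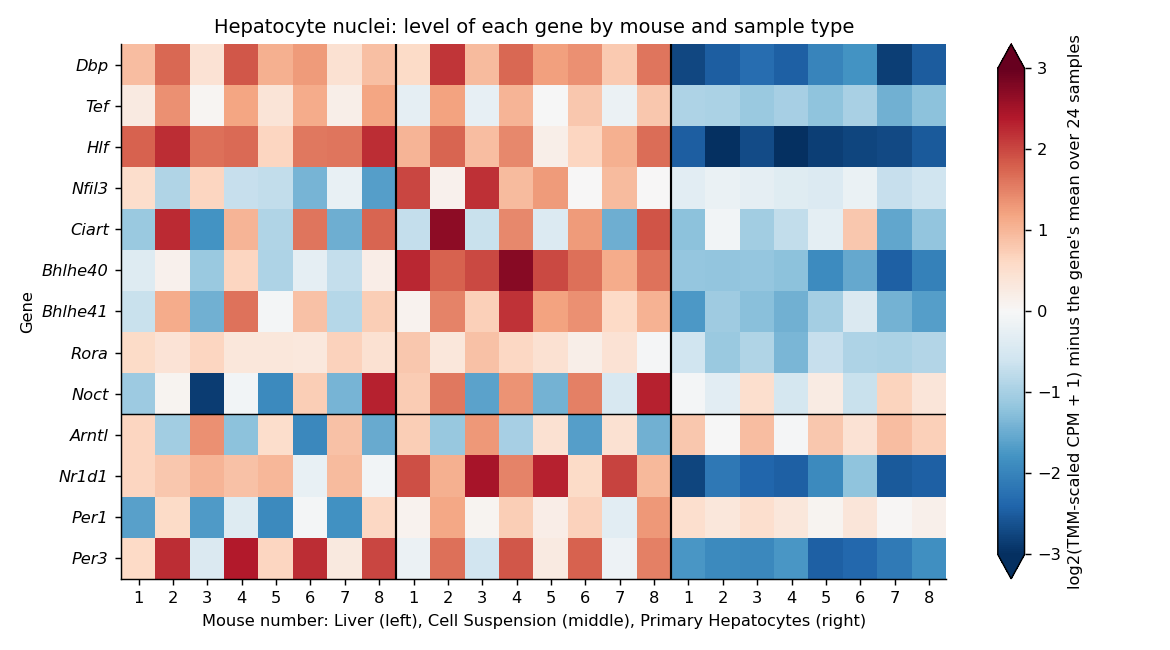
Colour gives log2(TMM-scaled CPM + 1) in hepatocyte nuclei minus the gene's mean over the 24 samples, for the 9 members (above the line) and 4 clock genes, with the mice in order of number within L, CS and PH. In L and CS, Ciart and Noct alternate between neighbouring mice and Arntl alternates the other way, while Dbp and Hlf are low in all 8 PH samples.

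Whether a mouse's level in L went with its level in CS was asked by Pearson's r of log2(TMM-scaled CPM + 1) over the 8 mice, with an exact permutation of the pairings and adjustment over 8408 genes. The test passed for 6 of 9 members (Tef, Hlf, Nfil3, Ciart, Bhlhe41 and Noct), where 16.8% of all genes passed with a positive r. Odd and even mice lay in separate sets in both L and CS for Tef, Ciart and Noct and in 1 of the 2 for Dbp, Nfil3, Bhlhe40 and Bhlhe41, so no r over all mice is given for these, and agreement within each set was not tested. For Hlf, r was 0.917 and Spearman's rho 0.857 (permutation p = 0.00114 and 0.0107, adjusted p of r = 0.0182), and r was 0.824 without the 2 mice farthest from the median. The call was lost for Hlf without mouse 2, 5, 6 or 8, for Nfil3 without mouse 2, 3, 6 or 8, for Ciart without mouse 2, for Noct without mouse 3 and for Bhlhe41 without any 1 of the mice, and the count of members fell to 2 without mouse 2 and to 3 without mouse 3, 6 or 8. For Dbp (exact permutation, adjusted p = 0.0887), Bhlhe40 (adjusted p = 0.518) and Rora (r = 0.463, rho = 0.333, permutation p = 0.246 and 0.428, adjusted p = 0.406, r = 0.348 without the 2 farthest) the test did not pass. Between L and PH and between CS and PH, 0 of 9 members passed this exact permutation test, as did 0 of 8773 and 0 of 8544 genes in all (for the members, smallest adjusted p = 0.934 and 0.93), and 0 and 1 (Bhlhe40) had an unadjusted p under 0.05.

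Hepatocyte nuclei of L and CS were divided by whether the 10 pericentral or the 10 periportal genes held more UMIs, which makes a range and not cell types. In L, 4777 nuclei were pericentral and 10110 periportal, and in CS 2878 and 10029, of which 827 and 1181 differed by 1 or 2 UMIs. Noct was the most uneven member. Its lowest, median and highest levels in L were 12.5, 60.5 and 395.6 CPM in pericentral and 23.4, 124.7 and 793.1 CPM in periportal nuclei, and it was lower in pericentral nuclei in 8 of 8 samples (log2 fold change -1.08 ± 0.08, adjusted p = 2.05e-20). In CS the difference was -0.81 ± 0.08 (adjusted p = 3.88e-13), again in 8 of 8 samples. Ciart was lower in pericentral nuclei, by -0.57 ± 0.10 in L and -0.48 ± 0.13 in CS (adjusted p = 5.10e-06 and 0.00490), and so was Bhlhe40, by -0.39 ± 0.07 and -0.29 ± 0.07 (adjusted p = 8.75e-06 and 0.00149). The call for Ciart in CS was lost without mouse 8.

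Rora was higher in pericentral nuclei in all 8 L and all 8 CS samples, by 0.46 ± 0.07 and 0.36 ± 0.07 (adjusted p = 2.48e-07 and 7.45e-05). Its spliced UMIs alone went the other way, by -0.41 ± 0.08 and -0.58 ± 0.10 (adjusted p = 1.08e-05 and 1.08e-06). Bhlhe41 was lower in pericentral nuclei in L (-0.28 ± 0.10, adjusted p = 0.0310), which was lost with RLE normalization and without mouse 2, 3, 6 or 7. In all, 5 members passed in L, where 15.7% of the 24694 genes tested passed in either direction. In CS 7 passed, against 14.0% of genes: besides the 4 named for CS, Tef (-0.32 ± 0.07, adjusted p = 7.22e-04) and Dbp (-0.27 ± 0.09, adjusted p = 0.0466) were lower and Nfil3 was higher (0.60 ± 0.08, adjusted p = 6.79e-10). The Dbp call was lost without mouse 2, 3, 4, 6, 7 or 8, with RLE normalization and without the TMM factors, and RLE also lost the calls of Ciart and Bhlhe40 in CS. Hlf passed in CS without mouse 3 or 5 and Tef in L without mouse 5.

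In endothelial nuclei, 5 of 9 members passed between PH and L, with Dbp, Tef, Hlf and Rora lower and Nfil3 higher, where 33.8% of 18279 genes passed in either direction. Rora measured 1731.1, 1991.4 and 2272.7 CPM in L, 1448.2, 1745.6 and 2474.0 in CS, and 311.5, 370.0 and 1172.9 in PH. No PH sample reached the L or CS samples, although without the TMM factors the highest PH sample (1374.8 CPM) lay above the lowest CS sample (1330.8 CPM). The highest PH value came from mouse 7, whose sample held 29 endothelial nuclei, and the next highest was 532.2 CPM. Rora was detected in 82.8% of the endothelial nuclei of that sample, and in 29.1% to 42.6% of those of the other PH samples. The PH endothelial nuclei include 75 from the authors' cluster 3, which is not named as cultured and holds mostly L and CS nuclei. The part of those nuclei in the PH values was not tested. Rora fell by 2.08 ± 0.20 on the log2 scale from L to PH (adjusted p = 1.07e-11) and by 1.95 ± 0.20 from CS to PH (adjusted p = 2.05e-10). Spliced Rora UMIs alone differed by 0.50 ± 0.26 and 0.49 ± 0.29 (adjusted p = 0.140 and 0.296).

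Hlf in endothelial nuclei measured 28.0, 48.9 and 115.0 CPM in L, 4.92, 36.8 and 74.1 in CS, and 0.0, 10.9 and 21.6 in PH. It was lower in PH than in L in 8 of 8 mice, by -2.09 ± 0.38 (adjusted p = 2.22e-05). Dbp measured 3.11, 19.9 and 35.8 CPM in L and 0.0, 5.76 and 17.9 in PH, with 19 UMIs over all PH samples. It was lower by -1.74 ± 0.50 (adjusted p = 0.00574), with 6 mice lower and 2 higher in PH. Tef went by -0.92 ± 0.26 (adjusted p = 0.00473), in 8 of 8 mice. Nfil3 measured 2.67, 6.03 and 17.1 CPM in L and 8.95, 25.0 and 38.0 in PH, and was higher in 8 of 8 mice, by 1.82 ± 0.43 (3.54-fold, adjusted p = 7.85e-04). With the pool in the fit 2 members passed, Nfil3 and Rora, and with all samples thinned to equal depth 2 passed, Hlf and Rora. With the mouse as a replicate block 6 passed, Bhlhe40 being added as higher (0.65 ± 0.26, adjusted p = 0.0463). Bhlhe40 also passed without mouse 4. With spliced UMIs alone 3 members passed as higher, Nfil3, Bhlhe40 and Ciart, and 2 as lower. Ciart and Noct did not pass with all samples and UMIs (0.96 ± 0.57 and 0.28 ± 0.33, adjusted p = 0.201 and 0.556) and passed as higher without mouse 8.

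Against CS, 3 members were lower in PH endothelial nuclei, Dbp (-2.23 ± 0.55, adjusted p = 0.00215), Hlf (-1.46 ± 0.45, adjusted p = 0.0173) and Rora, where 10.7% of genes were lower. Dbp and Hlf were each lower in 6 mice and higher in 2, and Rora was lower in 8 of 8. The Hlf call was lost with the pool in the fit and without mouse 2 or 6, whereas Bhlhe40 passed as lower without mouse 7 and Nfil3 as higher without mouse 3. Bhlhe40 was the only member to pass between CS and L, with 19.7, 32.8 and 81.3 CPM in L and 20.2, 93.8 and 256.3 in CS. It was higher in CS in 7 of 8 mice, by 1.38 ± 0.31 (adjusted p = 0.00327), where 2.03% of genes were higher. With the pool in the fit its adjusted p was 0.0696. Without mouse 1, Nfil3 also passed. Ciart and Bhlhe41 rested on few UMIs in endothelial nuclei, 26, 10 and 23 of Ciart and 24, 9 and 12 of Bhlhe41 over the 8 samples of L, CS and PH.

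Of the clock list, 5 of 14 genes were higher and 3 lower in PH than in L in endothelial nuclei (4 in all with the pool in the fit), and of the 6 PAR bZIP targets tested, 3 were higher and 2 lower (2 in all with the pool in the fit), where 2817 and 3364 of 18279 genes were higher and lower.

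Set side by side in the same samples, 9 of 9 members differed between endothelial and hepatocyte nuclei in L, where 44.4% of 27025 genes did. Of these, 8 were lower in endothelial nuclei, from -1.27 ± 0.18 for Dbp to -3.03 ± 0.24 for Nfil3 (adjusted p = 1.98e-09 and 7.17e-22). Rora was the 1 member higher in endothelial nuclei, by 1.17 ± 0.13 (2.25-fold, adjusted p = 2.00e-14). In CS the same 8 were lower and Rora was higher, by 0.97 ± 0.13 (adjusted p = 1.53e-10), where 32.4% of genes differed, and Dbp did not pass without the TMM factors (adjusted p = 0.149). In PH 3 members were lower in endothelial nuclei, Tef (-1.26 ± 0.15, adjusted p = 1.57e-11), Nfil3 (-1.21 ± 0.22, adjusted p = 2.38e-06) and Noct (-1.68 ± 0.19, adjusted p = 1.90e-13), where 20.8% of genes were lower. The spliced UMIs of Rora were lower in endothelial nuclei in all 3 sample types, by -1.43 ± 0.18 in L, -1.22 ± 0.23 in CS and -0.81 ± 0.20 in PH (adjusted p = 6.13e-14, 1.35e-06 and 3.01e-04). In PH, Rora passed as higher without mouse 3, with RLE normalization and without the TMM factors, and Bhlhe40 (without mouse 5 or 7), Bhlhe41 (without mouse 8) and Ciart (without mouse 1) passed as lower.

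The change from L to PH differed between the cell types for 7 members by the interaction term, where 25.1% of genes did. The 12 hepatocyte markers all passed as well, with an endothelial minus hepatocyte log2 change of 1.39 to 2.99 (median 1.91). As the endothelial minus the hepatocyte log2 change, Hlf, Dbp, Tef, Ciart, Bhlhe40 and Nfil3 gave 2.4 ± 0.36, 1.9 ± 0.50, 0.87 ± 0.20, 1.84 ± 0.54, 1.80 ± 0.25 and 1.82 ± 0.36 (adjusted p = 2.45e-08, 0.00151, 3.57e-04, 0.00505, 1.30e-09 and 1.45e-05). Rora went the other way, at -0.93 ± 0.18 (adjusted p = 1.61e-05), and at 0.62 ± 0.28 among spliced UMIs (adjusted p = 0.107). Bhlhe41 differed by 1.57 ± 0.63 (adjusted p = 0.0575) and passed without mouse 3, 4, 6 or 7. From L to CS, 2 members had a lower log2 change in endothelial than in hepatocyte nuclei, Bhlhe40 by -0.97 ± 0.24 (adjusted p = 0.00815) and Noct by -1.12 ± 0.28 (adjusted p = 0.00889), where 1.82% of genes did. The Noct call was lost without mouse 1, and both were lost without the TMM factors.

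Hepatocyte markers were also present in endothelial nuclei. Their sum there had a median of 3233.7 CPM in L and 3473.6 CPM in PH, whereas in hepatocyte nuclei it was 15387.0 and 4840.7 CPM. Their summed level there was 21.8% of that in hepatocyte nuclei in L, 19.7% in CS and 71.2% in PH. The same ratios were 25.3%, 24.1% and 106.5% for Hlf, 22.4%, 20.3% and 72.1% for Ciart, 16.4%, 15.1% and 47.6% for Nfil3, and 27.7%, 14.2% and 78.9% for Bhlhe40. Tef had ratios of 30.1%, 27.9% and 45.8%, and Rora 317.3%, 303.2% and 116.5%. Those of Dbp were 53.2%, 62.9% and 184.0%, those of Bhlhe41 21.9%, 14.6% and 62.6%, and those of Noct 37.4%, 18.9% and 34.8%. The ratios of Rora and Noct were lower in PH than in L, and those of the other 7 were higher. Of the UMIs in a pool, 61.3% to 70.7% lay in barcodes that the authors kept as single nuclei. The rest can include nuclei that the authors removed as doublets or for lack of a hashtag. It is therefore not a measure of RNA outside nuclei. The part of hepatocyte RNA in the endothelial values was not tested.

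**Figure D5:**
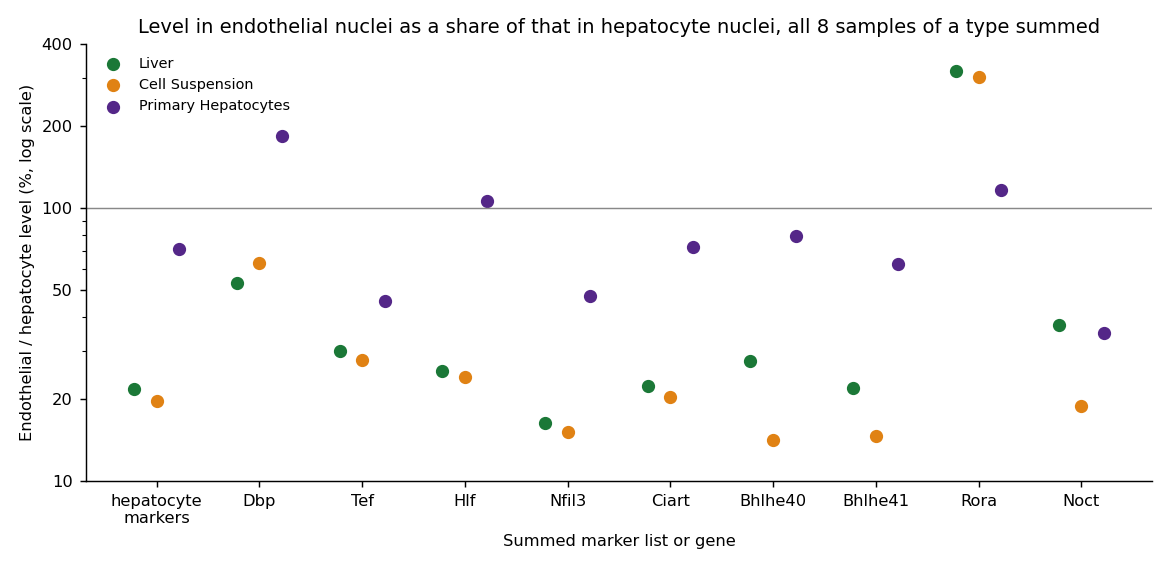
Each point is the level in endothelial nuclei as a percent of that in hepatocyte nuclei (log scale), with the 8 samples of a sample type summed, for the summed hepatocyte markers and the 9 members. The marker sum lies at 21.8% in L and 71.2% in PH, and only Rora lies above 100% in L and CS.

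The markers of the remaining cell types in hepatocyte nuclei were low beside the hepatocyte markers. From L to PH, the 8 stellate markers summed to 19.3 to 46.3 CPM and 125.2 to 646.7 CPM, the 6 Kupffer cell markers to 7.8 to 17.4 and 7.6 to 16.8, the 6 leukocyte markers to 12.7 to 30.3 and 50.6 to 68.5, and the 6 biliary markers to 132.6 to 194.6 and 147.7 to 215.3. None of these markers was undetected in either group, and their part in the members' levels was not tested.

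Genes with a pattern like that of Dbp were sought among 8612 genes of at least 10 CPM in hepatocyte nuclei, by Pearson's r of log2(TMM-scaled CPM + 1) as a description. Over the 24 samples, which mix the 3 sample types, the 5 closest included Cyp2d40, Reep6, Pcsk4 and Klc4, with r from 0.982 to 0.986. Among the members, Hlf had an r of 0.947 and Noct of 0.1 with Dbp. Over the 8 L samples the closest were Myo19 (0.961), Pcsk4 (0.951), Arhgef1 (0.945), Clcn2 (0.916) and Eef2k (0.913). Over these L samples, r with Dbp was 0.164 for Hlf, -0.482 for Nfil3 and -0.817 for Rora. For Tef, Ciart, Bhlhe40, Bhlhe41 and Noct it was 0.815, 0.746, 0.78, 0.901 and 0.437. The genes from Tef to Noct divided odd from even mice in L, so their r mixes both sets of mice.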

How the data were processed

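Single-nucleus RNA was measured in 24 hashtagged samples of 8 mice. Reads were assigned by the authors to spliced and unspliced GRCm38 transcripts (Salmon Alevin, Alevin-fry) and doublets removed. The deposited values are unnormalized UMI counts, each gene having a spliced, an unspliced and an ambiguous count in every barcode. The authors' cell names were used, and clusters they named only as cultured were read as hepatocyte, endothelial or stellate from marker lists. The hashtag labelled CD2 was read as the CS sample of mouse 2.

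The 3 states were summed per sample and nucleus type. Genes of at least 10 counts entered quasi-likelihood fits in edgeR 4.0.16 (R 4.3.3, scaled by TMM, sample type as the only term), with the sample as a block between cell types and zones. Printed CPM of members and clock genes by sample are TMM scaled, as are fold changes, the agreement of mice and the likeness to Dbp, whereas levels of markers, zones and clusters and the endothelial to hepatocyte ratios are not. Unspliced shares needed 20 UMIs of a gene in every sample, and the agreement of mice a mean of 10 CPM. Alternatives are given at the end, among them DESeq2 1.42.0. The fits were tested on simulated data. Other steps used Python 3.11.15 with scipy 1.17.1.

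The members and lists were chosen with earlier results of these data known. The genes named are the 9 members, up to 5 genes with values from each of the clock and PAR bZIP lists, and those among the 5 genes most like Dbp, except that some results are not reported here. Same-numbered samples come from the same liver. The correlation of their deviations from the group mean over 8617 genes in hepatocyte nuclei was 0.34 to 0.85 between L and CS (median 0.67, against -0.08 for different mice), -0.05 to 0.13 between L and PH, and -0.17 to 0.13 between CS and PH. Samples per group are separate mice, and p-values cover the spread between them. The main fits between sample types do not pair the samples of a mouse. Their p-values for CS against L therefore include spread that both samples of a mouse share. Adjusted p-values are from edgeR unless an exact test is named.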

Additional observations from a re-analysis of the deposited data

Results flagged for a closer look

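Of 54 sets of 8 samples (9 genes, 3 sample types, 2 nucleus types), 9 (16.7%) held a sample set apart from the others by Dixon's test at 95%. The test gives about 1 in 20 by chance for normally distributed values. It was run on CPM that were not log transformed, so no excess over chance is shown. Each of the 9 was the highest sample of its set. In hepatocyte nuclei these were PH of mouse 6 for Ciart (18.8 CPM) and for Bhlhe41 (8.07 CPM), and L of mouse 8 for Noct (784.9 CPM). In endothelial nuclei they were L of mouse 8 for Noct (201.9 CPM), L of mouse 1 for Nfil3 (17.1 CPM), CS of mouse 3 for Nfil3 (119.6 CPM), CS of mouse 4 for Bhlhe40 (256.3 CPM), L of mouse 4 for Bhlhe41 (11.1 CPM) and PH of mouse 7 for Rora (1172.9 CPM). The authors' cluster 17 held 17.9% of the hepatocyte nuclei in PH of mouse 6, and 4.04% to 12.8% in PH of the other mice. In PH of mouse 6 it held 254 of the 333 Ciart UMIs and 78 of the 143 Bhlhe41 UMIs. Its part in the values set apart was not tested.

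The change from L to PH differed between endothelial and hepatocyte nuclei, by the interaction term in edgeR, for Hlf (2.4), Dbp (1.9), Ciart (1.84), Nfil3 (1.82), Bhlhe40 (1.80), Tef (0.87) and Rora (-0.93), and that from L to CS for Bhlhe40 (-0.97) and Noct (-1.12), all as log2 differences with endothelial minus hepatocyte. From L to PH, all 12 hepatocyte markers passed the same term, at 1.39 to 2.99.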

How the results depend on the processing

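Of 245 counts of members recomputed under other settings, 223 lay within 1.5 times the reported count. These counts take calls in either direction together, so they do not show that the direction was kept. With spliced UMIs alone, endothelial PH against L gave 3 higher and 2 lower, against 1 and 4 reported. Hepatocyte PH against L then gave 1 higher and 5 lower, against 0 and 7. In endothelial nuclei, PH against L gave 2 with the pool as a term and 2 thinned to equal depth, and CS against L gave 2 with DESeq2, 0 with the pool and 0 thinned (Bhlhe40 then had a log2 fold change of 1.09 and 1.35). Endothelial against hepatocyte nuclei in PH gave 5 with spliced UMIs alone, and the PH against L interaction 3. The zone comparison gave 3 in L with unspliced UMIs alone, and 4 in CS with RLE normalization, with spliced and with unspliced UMIs alone. With the mouse as a replicate block, hepatocyte CS against L gave 4 and endothelial PH against L 6, and the block moved no count of members by over 1.5 times. The CS against L interaction gave 0 with spliced UMIs alone, 1 with unspliced ones and 1 without mouse 1.

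Of 2267 values of single members, 78 changed sign, 67 of them where neither setting passed the test (hepatocyte Noct in PH against L was 0.82 with the replicate block) and 11 where at least 1 did. Among the latter, with spliced UMIs alone, were Nfil3 in hepatocyte PH against L (0.89), Rora in endothelial PH against L (0.50) and PH against CS (0.49), Hlf in endothelial PH against CS (0.02), Rora between cell types (-1.43 in L, -1.22 in CS, -0.81 in PH, interaction 0.62) and Rora between zones (-0.41 in L, -0.58 in CS). With unspliced UMIs alone it was Bhlhe41 between zones in L (0.02). The cause was not tested.

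Leaving out each mouse in turn gave 1 to 2 members for endothelial CS against L, 2 to 4 for the unspliced share in PH against CS and 2 to 5 for the agreement of mice between L and CS. The hepatocyte counts were 6 to 7 for PH against L, 7 to 8 for PH against CS and 2 to 3 for CS against L. RLE normalization moved the all-gene median, on the log2 scale, in hepatocyte CS against L from 0.0234 to 0.104, with 2183 higher and 3800 lower calls becoming 2800 and 3062, and in endothelial PH against L from -0.0141 to 0.132, with 2817 and 3364 becoming 3533 and 2662. Between cell types it moved that median from -0.2505 to -0.0798 in L, from -0.4134 to -0.1976 in CS and from -0.3207 to -0.0882 in PH, where 3005 and 5617 calls became 3839 and 3798, and between zones in CS 1241 and 2218 calls became 1681 and 1335. The fit without TMM factors was chosen after seeing the data. It moved the all-gene median in hepatocyte PH against L from 0.0992 to 0.6584, in PH against CS from 0.019 to 0.7052 (7207 higher and 6293 lower calls becoming 12740 and 3140) and in CS against L from 0.0234 to -0.1093 (1381 and 5556 calls), and the CS against L interaction gave 0 members. Between cell types the higher and lower calls became 7077 and 4609 in L and 5393 and 3156 in CS, against 4806 and 7180 and 3304 and 5441. Every sample held at least 25 endothelial nuclei, so no sample was left out for that reason. Depth limits Ciart and Bhlhe41 in endothelial nuclei.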

Other observations

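Among the authors' clusters of cultured nuclei, cluster 17 (1279 nuclei, 1271 from PH) held the highest levels of Ciart (84.3 CPM), Bhlhe41 (29.5 CPM) and Dbp (16 CPM) of the cultured hepatocyte clusters, where the largest, cluster 0 (5977 nuclei), held 2.47, 2.87 and 1.6 CPM. Noct was at 343.2 CPM in cluster 0 and at 93.9 CPM in cluster 17. The clusters were built from these same nuclei, so these levels are a description with no test. The biliary cluster 30 (127 nuclei) held Rora at 3533.9 CPM and the stellate cluster 20 (1039 nuclei) at 1651.5 CPM.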
